A study of Ambystoma mexicanum with 9 samples.

Results

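Glucose use and the response to low oxygen were followed through 9 genes in the spinal cord of the axolotl, which rebuilds this tissue after injury. The genes were chosen by symbol: SLC2A1, ALDOA, TPI1, PGAM1, ENO1, HIF1A, DDIT4, BNIP3 and P4HA2. Every probe set that the array's annotation gave to 1 of these symbols alone was taken, which made 13 probe sets of the 20035 tested and 9 of 8639 gene symbols. SLC2A1, TPI1, BNIP3 and P4HA2 each had 2 probe sets, and the other 5 genes had 1.

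The 9 arrays fell into 3 groups of 3. The 0dpi group was uninjured cord, and 1dpi was cord tissue 1 day after injury. The 1dpiT group was taken 1 day after an injection of ivermectin (IVM), which opens chloride channels gated by glycine and so depolarizes cells that carry them. RNA of 10 animals of 2 to 3 cm was pooled on each array, and 150 ng was labelled. Pressure injection of IVM, or of water as the vehicle, went into the central canal, after which a piece of the cord was cut out, and the injured area was collected 1 day later. The sample labels differ from that account in part. They call the injury of 1dpi a crush and name no injection for it, and they name the injection but no injury for 1dpiT. Whether the 0dpi animals received an injection is not given in the sources used here. No genotype or strain is named for any group, and the drug was given into the canal and not to a chosen cell type.

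Cells take up glucose through transporters of the SLC2A family and break it down in glycolysis to pyruvate, which enters the mitochondrion or is turned into lactate. When oxygen is low, the transcription factor HIF1A escapes degradation in mammalian cells and raises transporters, glycolytic enzymes and a set of stress genes, among them DDIT4, BNIP3 and P4HA2. HIF1A itself is controlled mainly at the level of its protein in those cells, by prolyl hydroxylation and the ubiquitin ligase that holds VHL. None of these steps is measured by an array, which reads transcript level only.

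Expression is given as the deposited log2 signal after RMA by the authors, on which a difference of 1 is 2-fold. Arrays of the same group correlated at 0.997 to 0.999 over all probe sets. The 1dpi arrays stood apart: they correlated at 0.971 to 0.972 with 0dpi and at 0.967 to 0.968 with 1dpiT, while 0dpi and 1dpiT correlated at 0.996 to 0.997. Poly-A spike-ins, which are bacterial RNAs mixed into each sample, were 0.55 higher in 1dpi than in 0dpi and 0.65 higher in 1dpi than in 1dpiT, and RMA brings all arrays to 1 distribution. Every difference below is therefore relative to the other transcripts of the same array, and the direction of small differences depends on that scaling. The tissue was the cord region with cells around it, and its markers were mixed. In 0dpi the glial genes GFAP and MBP lay at 9.97 and 11.1 and the neurofilament NEFM at 9.64, against 3.47 for the brightest negative control, while MAP2 (2.99) and SYT1 (3.14), both neuronal, were below it. The epithelial genes EPCAM (12.9) and KRT8 (13.4) were also well above it. Averaged over the marker lists used below, skeletal muscle lay at 10.40 to 10.43 in 0dpi, epidermis at 10.76 to 10.80 and connective tissue at 9.46 to 9.50. Ependymoglia and oligodendrocyte markers lay at 8.02 to 8.14 there, and neuron markers at 6.35 to 6.42.

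In the comparison of 1dpi with 0dpi, which asks how cord differs a day after injury, 8 of the 13 probe sets were higher, 3 were lower and 2 were not called. A call is an adjusted p under 0.05 in limma after Benjamini-Hochberg correction over all 20035 probe sets. Over the whole array 52.9% were called, 24.7% higher and 28.2% lower, so a call in either direction was common there. The median difference of the 13 was 0.48, beside -0.00 over all probe sets. The comparison of 1dpiT with 1dpi sets tissue of animals given IVM beside the injured controls. There 2 were higher, 8 lower and 3 not called (median -0.50). Of all probe sets 54.0% were called in that comparison, 29.0% higher and 25.0% lower. In 1dpiT against 0dpi, 0 were higher, 3 were lower and 10 were not called (median -0.14), where 5.60% of all were called, 2.26% higher and 3.34% lower. The 3 comparisons share their groups, so they are not independent of each other. Dates of collection and of array processing were not compared between the groups. The 1dpi and 1dpiT tissue was collected at 1 day in each case, from separate pools of animals. Below, a rise or fall is therefore the difference of the first group from the second, and not a change over time. By the series text the injured controls were also given water, so injury and injection cannot be told apart in 1dpi against 0dpi. The sample labels name a crush for 1dpi and no injury for 1dpiT. If the labels hold, injury and drug cannot be told apart in 1dpiT against 1dpi.

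In 6 of the 13 probe sets all 3 groups were apart, and in the other 7 at least 1 pair of groups overlapped. The share of all probe sets with all 3 groups apart was not counted, so the 6 cannot be set against the whole array. The 3 values of each group did not overlap in 11 probe sets between 1dpi and 0dpi, in 10 between 1dpiT and 1dpi and in 9 between 1dpiT and 0dpi. Over the whole array this held for 59.4%, 60.4% and 23.1% of probe sets. Few of these differences were large. At an unadjusted p under 0.05 and at least 2-fold, DDIT4 and both SLC2A1 probe sets were higher in 1dpi than in 0dpi and lower in 1dpiT than in 1dpi, and no other member was called in either direction. Under that rule 3.61% of all probe sets were higher and 3.51% lower in 1dpi against 0dpi, and 3.93% higher and 3.87% lower in 1dpiT against 1dpi. DDIT4 and 1 probe set of SLC2A1 were also at least 2-fold lower in 1dpiT than in 0dpi, where that rule called 0.125% of all probe sets lower and 0.0349% higher.

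**Figure D1:**
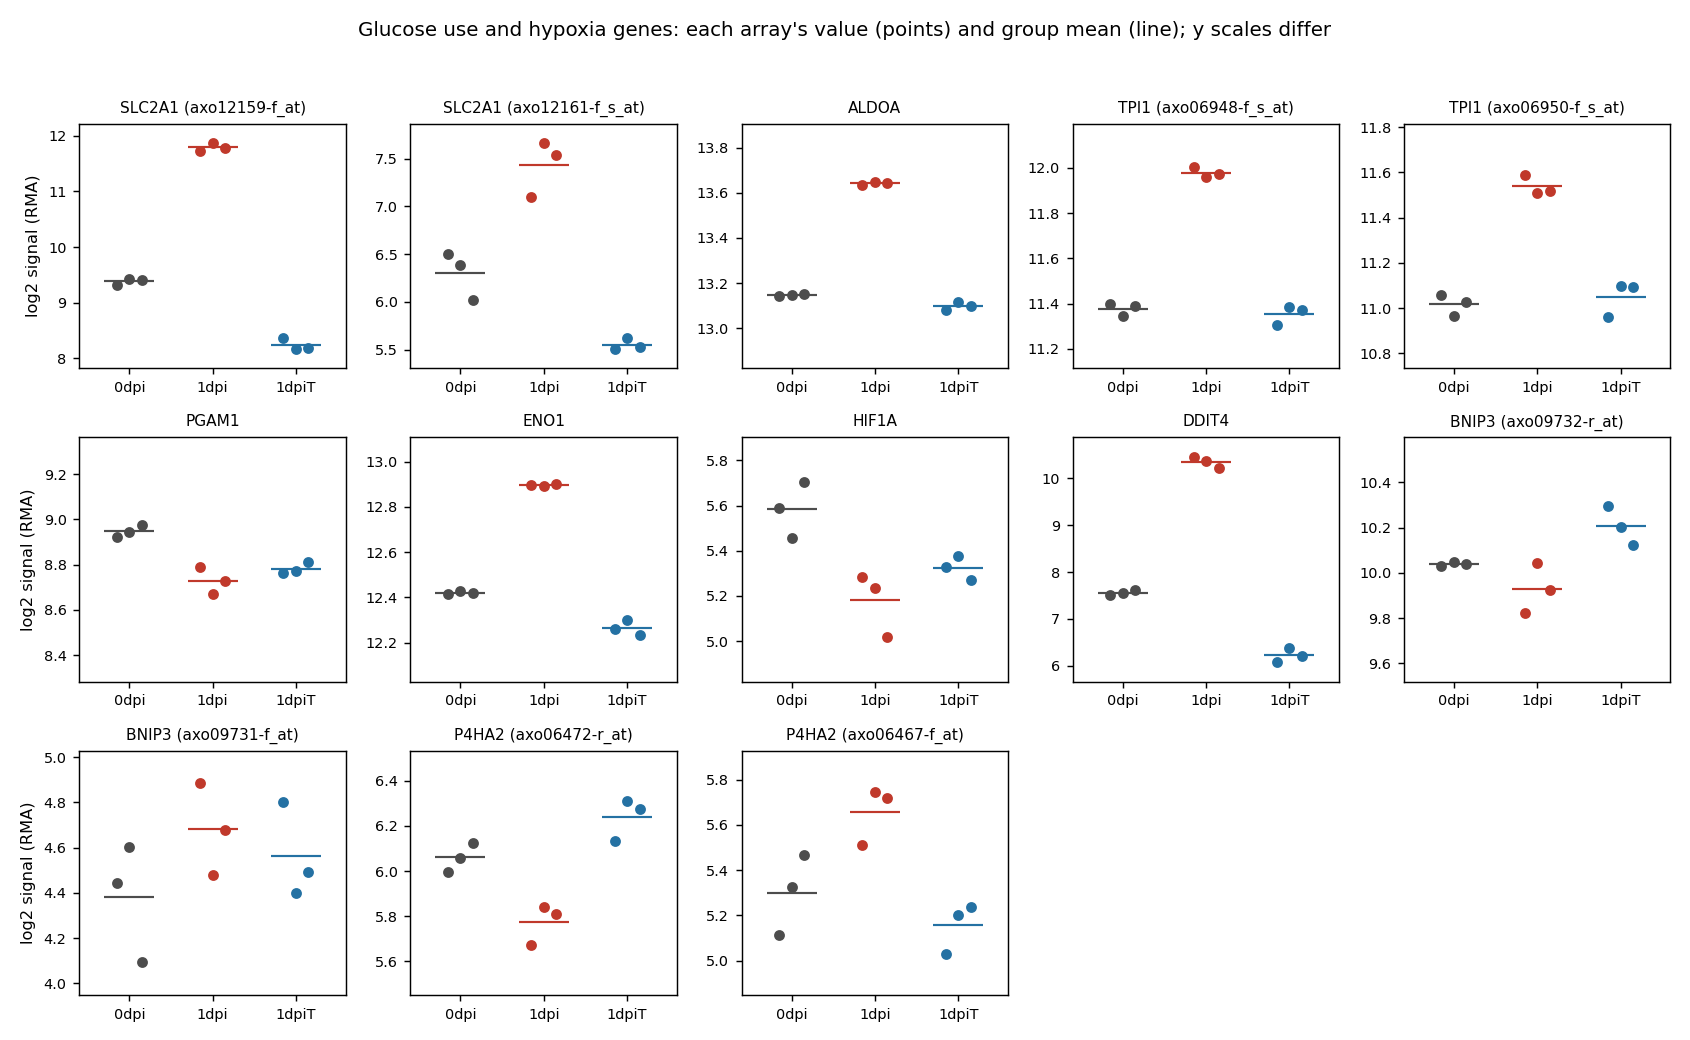
Log2 signal (y axis, a scale of its own in each panel) of the 13 probe sets on the 9 arrays, by group (x axis). Points are arrays and lines are group means; SLC2A1 and DDIT4 are highest in the 3 arrays of 1dpi and lowest in the 3 of 1dpiT, with all 3 groups apart.

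SLC2A1 encodes GLUT1, the transporter through which many cells, and the barriers of the brain in mammals, take up glucose. Its brighter probe set, axo12159-f_at, stood at 9.33, 9.42 and 9.41 in 0dpi, at 11.73, 11.87 and 11.78 in 1dpi, and at 8.36, 8.17 and 8.18 in 1dpiT. The 3 groups did not overlap, and their order was 1dpi, 0dpi and 1dpiT. SLC2A1 rose 5.29-fold in 1dpi against 0dpi (log2 2.40 ± 0.06, SE, n = 3 arrays per group, adjusted p = 1.55e-09), the 83rd largest rise of the 20035 probe sets. It was 11.8-fold lower in 1dpiT than in 1dpi (log2 -3.56 ± 0.06, adjusted p = 7.51e-11), the 36th largest fall. It was also 2.22-fold lower in 1dpiT than in uninjured cord (log2 -1.15 ± 0.06, adjusted p = 6.76e-06), the 17th largest fall of that comparison.

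The second probe set of SLC2A1, axo12161-f_s_at, kept the same order at smaller differences. Its values were 6.50, 6.38 and 6.02 in 0dpi, 7.10, 7.66 and 7.53 in 1dpi, and 5.51, 5.62 and 5.53 in 1dpiT, again with no overlap. The differences were 1.13 ± 0.15 for 1dpi against 0dpi (adjusted p = 9.44e-05), -1.88 ± 0.15 for 1dpiT against 1dpi (adjusted p = 1.95e-06) and -0.75 ± 0.15 for 1dpiT against 0dpi (adjusted p = 0.0163). By Affymetrix naming, the ending s_at marks probes shared between transcripts, so this signal may belong in part to other transcripts, and the same holds for both TPI1 probe sets. The last of the 3 calls was lost without 0dpi replicate 1 (adjusted p = 0.0569), without 0dpi replicate 2 (0.0674), without 1dpiT replicate 1 (0.0582) and without 1dpiT replicate 3 (0.0564).

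Other carriers of glucose and lactate did not share 1 direction. Of 11 measured transporter genes outside the members, 5 were higher and 2 lower in 1dpi against 0dpi, with a median of -0.01. With 1 probe set per gene, 25.3% of all 8639 genes were higher and 29.5% lower in that comparison. Without 0dpi replicate 3 the lower genes came to 4. SLC2A2, the low-affinity transporter of liver and gut in mammals, was at least 2.61-fold higher in 1dpi (adjusted p = 7.54e-08). Its level was 4.86 there and 3.25 in 0dpi, where all 3 arrays lay below the brightest negative control (3.47), which was set as a floor. SLC16A1, a lactate and pyruvate carrier, rose by 0.36 ± 0.05, while its second probe set stood at -0.13 and was not called. The fructose transporter SLC2A5 fell by 0.71 ± 0.11 and SLC2A8 fell by 0.67 ± 0.10. In 1dpiT against 1dpi, 3 of the 11 were higher and 5 lower (median 0.06), where 30.4% of all genes were higher and 26.1% lower. SLC2A2 was at least 2.56-fold lower (adjusted p = 1.27e-07), with 2 of the 3 arrays of 1dpiT below that floor and a mean of 3.40. SLC16A1 fell by 0.94 ± 0.05 and the related carrier SLC16A7 fell by 0.52 ± 0.07, while SLC2A5 was 0.83 ± 0.11 higher. The second probe set of SLC16A1 was called in the other direction there, at 0.36. Against 0dpi, 1 of the 11 was lower in 1dpiT and 0 were higher, where 3.67% of all genes were lower and 2.16% higher. That gene was SLC16A1 (-0.58), whose second probe set stood at 0.23 and was not called.

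**Figure D2:**
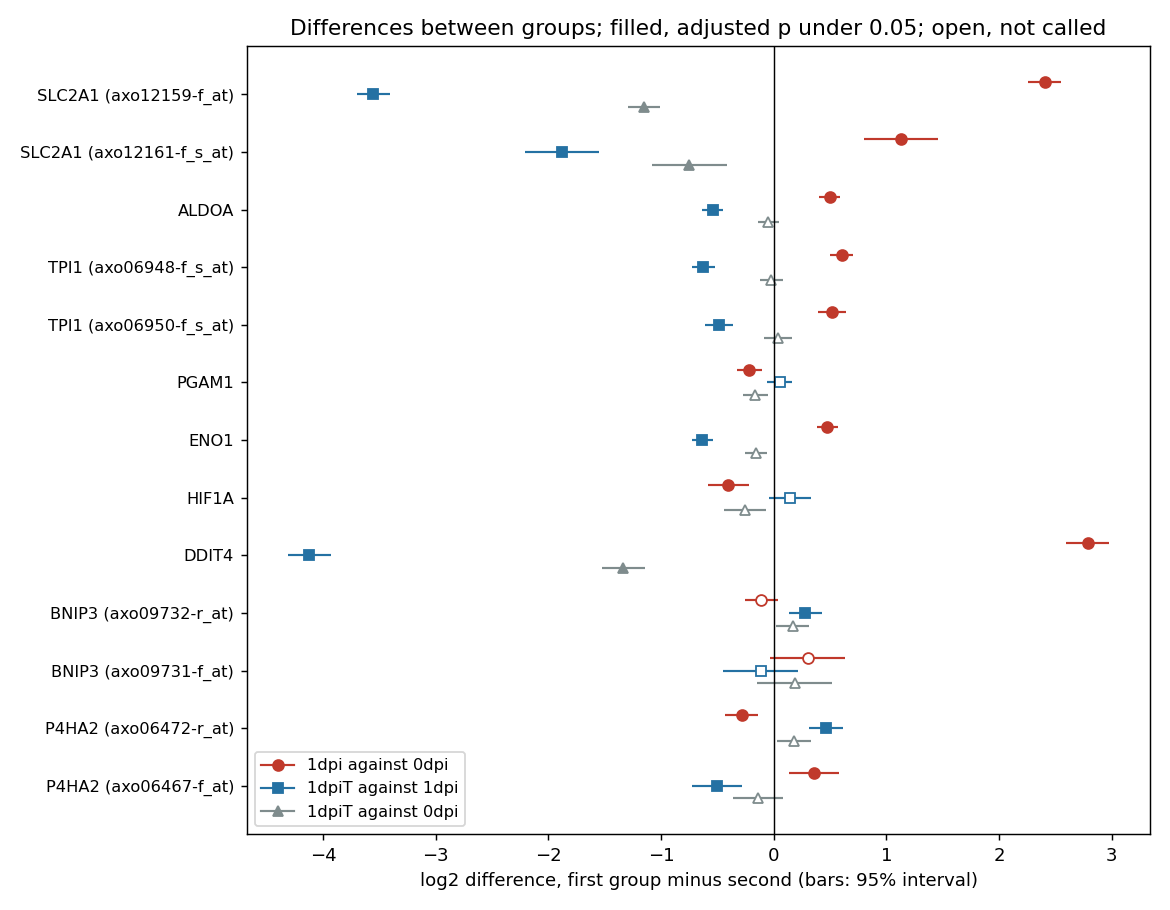
Log2 difference (x axis, first group minus second) of each of the 13 probe sets (y axis) in the 3 comparisons, with 95% intervals as bars; filled symbols are calls in limma. DDIT4 at 2.79, -4.12 and -1.34 and SLC2A1 (axo12159-f_at) at 2.40, -3.56 and -1.15 lie outside the range of the 7 other genes, which runs from -0.63 to 0.60.

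ALDOA, TPI1 and ENO1, all enzymes of glycolysis, were higher in 1dpi than in both other groups, by less than 2-fold. ALDOA, the aldolase that splits fructose bisphosphate, stood at 13.14, 13.15 and 13.15 in 0dpi, at 13.63, 13.65 and 13.64 in 1dpi, and at 13.08, 13.12 and 13.10 in 1dpiT. The 1dpi arrays lay above all others, and the other 2 groups were separate by a narrow gap. ALDOA rose 1.41-fold in 1dpi against 0dpi (log2 0.49 ± 0.04, adjusted p = 3.73e-06) and was 1.46-fold lower in 1dpiT than in 1dpi (log2 -0.54 ± 0.04, adjusted p = 1.65e-06). Between 1dpiT and 0dpi it differed by -0.05, with a 95% interval of -0.14 to 0.04 (adjusted p = 0.608).

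TPI1, the isomerase that interconverts the products of that split, had a pair of probe sets with the same calls. Probe set axo06948-f_s_at stood at 11.40, 11.35 and 11.39 in 0dpi, at 12.00, 11.96 and 11.97 in 1dpi, and at 11.30, 11.39 and 11.37 in 1dpiT. Probe set axo06950-f_s_at stood at 11.06, 10.96 and 11.03 in 0dpi, at 11.59, 11.51 and 11.52 in 1dpi, and at 10.96, 11.10 and 11.09 in 1dpiT. In both, the 1dpi arrays lay above all others, while 0dpi and 1dpiT overlapped. TPI1 was 0.60 ± 0.05 and 0.52 ± 0.06 higher in 1dpi than in 0dpi (adjusted p = 1.85e-06 and 2.08e-05), and 0.62 and 0.49 lower in 1dpiT than in 1dpi (log2 -0.62 and -0.49, adjusted p = 1.23e-06 and 3.1e-05). Between 1dpiT and 0dpi the first differed by -0.02 (95% interval -0.13 to 0.08) and the second by 0.03 (-0.09 to 0.16).

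ENO1, the enolase of most tissues, was level within each group. It stood at 12.42, 12.43 and 12.42 in 0dpi, at 12.90, 12.89 and 12.90 in 1dpi, and at 12.26, 12.30 and 12.23 in 1dpiT, with no overlap between any groups. ENO1 rose 1.39-fold in 1dpi against 0dpi (log2 0.48 ± 0.04, adjusted p = 6.18e-06) and was 1.55-fold lower in 1dpiT than in 1dpi (log2 -0.63 ± 0.04, adjusted p = 6.69e-07). It differed by -0.16 between 1dpiT and 0dpi, with an interval of -0.25 to -0.06, and was not called (adjusted p = 0.0682). Moderation of the variance with a trend and robust to outliers gave a call there (adjusted p = 0.000192), as did leaving out the dimmest 50% of probe sets (0.0161).

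PGAM1, the mutase between these steps, moved the other way. Its values were 8.92, 8.94 and 8.98 in 0dpi, 8.79, 8.67 and 8.73 in 1dpi, and 8.76, 8.77 and 8.81 in 1dpiT. The uninjured arrays were highest, and 1dpi and 1dpiT overlapped. PGAM1 fell by 0.22 ± 0.05 in 1dpi against 0dpi (adjusted p = 0.00358). It differed by 0.05 between 1dpiT and 1dpi (95% interval -0.06 to 0.16, adjusted p = 0.394) and by -0.16 between 1dpiT and 0dpi (-0.27 to -0.06, adjusted p = 0.0902). The last became a call with the trend and robust setting (adjusted p = 0.0375) and without the dimmest 50% of probe sets (0.0293).

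The rest of the glycolytic list followed ALDOA, TPI1 and ENO1 in part. Of 18 other glycolytic and regulatory genes measured, 9 were higher in 1dpi than in 0dpi and 1 lower (median 0.20, beside -0.00 over all genes). HK1, the hexokinase that traps glucose in the cell, rose by 0.56 ± 0.06, while its other probe set stood at -0.15 and was not called. GPI, the next enzyme, rose by 0.44 ± 0.05 and PGK1, which yields ATP, by 0.44 ± 0.05. ENO3, the enolase of muscle in mammals, rose by 0.86 ± 0.05, more than the member ENO1. The exception was ADPGK, a glucokinase that uses ADP, at -0.71. Named after their values were seen, PFKL, ALDOC, ENO2, PKLR and all 4 PFKFB genes were not called on the brightest probe set of each, at -0.15 to 0.19. ALDOC lay below the brightest negative control in all groups. The second probe set of PFKL, a phosphofructokinase, was called lower in 1dpi than in 0dpi, at -0.63, and higher in 1dpiT than in 1dpi, at 0.71. PFKP was among the 9 higher, at 0.21, but its second probe set was called lower, at -0.35. In 1dpiT against 1dpi the probe sets of PFKP were also called in opposite directions, at -0.28 and 0.28.

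In 1dpiT against 1dpi, 10 of these 18 genes were lower and 1 higher (median -0.26, beside 0.00 over all genes). ENO3 fell by 0.89 ± 0.05, LDHA, which makes lactate, by 0.44 ± 0.05 and GPI by 0.43 ± 0.05, whereas ADPGK was 0.91 ± 0.09 higher. The second probe set of HK1 was called in the opposite direction there, at 0.45 against -0.40. Between 1dpiT and 0dpi, 1 of the 18 was lower, PFKFB1 at -0.24, and 0 were higher (median -0.02), and the differences of the 18 ran from -0.24 to 0.20. Without 0dpi replicate 2, PFKFB1 was not called and the count was 0.

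**Figure D3:**
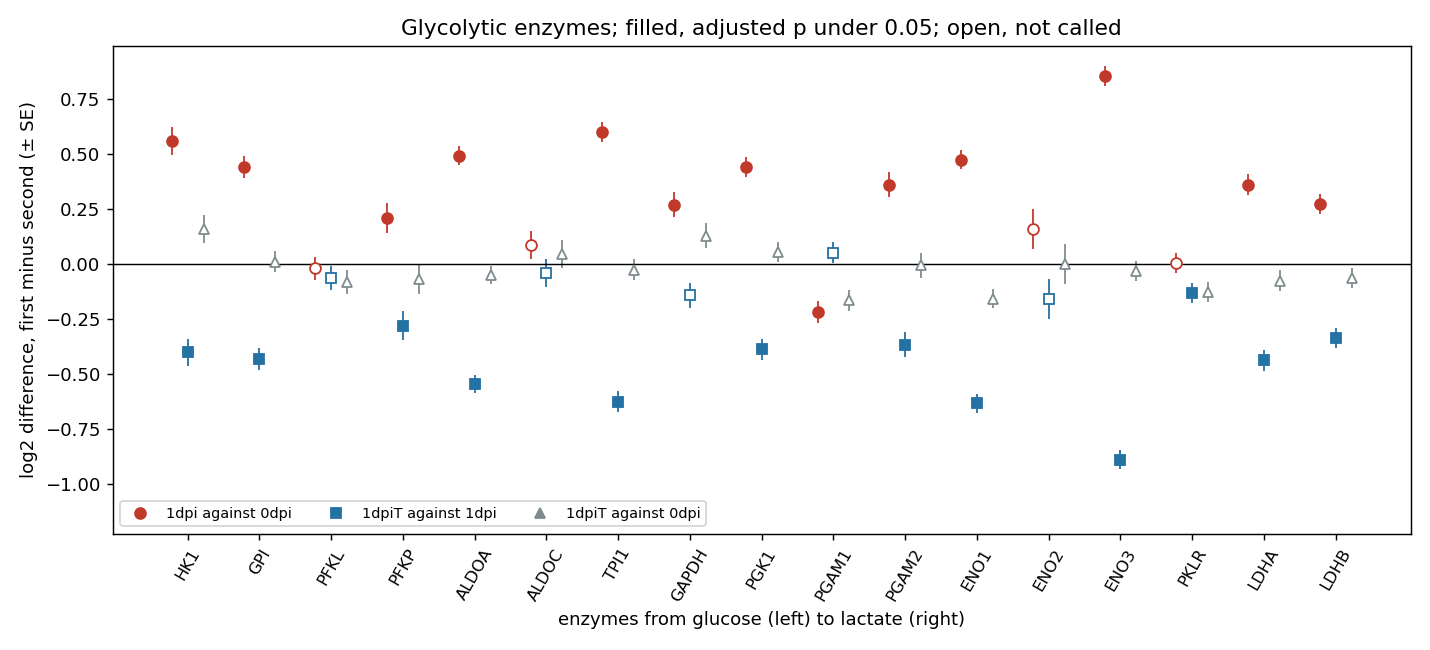
Log2 difference ± SE (y axis) of 17 glycolytic enzymes in pathway order (x axis), 1 probe set per gene, in the 3 comparisons; filled symbols are calls. ENO3 reaches 0.86 and -0.89, the members ALDOA, TPI1 and ENO1 lie between 0.48 and 0.60 in 1dpi against 0dpi, and PGAM1 lies at -0.22.

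Markers of skeletal muscle, connective tissue and erythrocytes moved with these enzymes, as did part of the neuron and glial markers, while epidermis did not. On the brightest probe set of each gene, all 21 measured skeletal muscle markers were higher in 1dpi than in 0dpi (median 0.92). In 1dpiT against 1dpi, 20 of 21 were lower (median -0.75). Their summed signal on the log2 scale ran from 16.41 to 16.44 in 0dpi, from 17.05 to 17.08 in 1dpi and from 16.41 to 16.45 in 1dpiT. Other probe sets of DES (axo07720-f_at, -1.11 and 0.77) and TPM1 (axo19445-r_at, -0.95 and 0.84) were called the opposite way in these comparisons. Further probe sets were called the same way, such as that of MYL2 (axo06165-f_at, 2.92 and -3.19). Fibroblast and connective tissue markers were higher in 14 of 20 genes in 1dpi against 0dpi (median 0.92) and lower in 14 in 1dpiT against 1dpi (median -0.96). Their sums in 0dpi, 1dpi and 1dpiT were 15.26 to 15.32, 16.21 to 16.22 and 15.23 to 15.27. The other probe sets of FBN1 were called in opposite directions, axo15433-r_at at -1.43 and 0.98 and axo15430-f_at at 0.80 and -0.77. Further probe sets went with the list, such as that of COL1A1 (axo20348-f_s_at, 1.95 and -1.94). Erythrocyte markers were higher in 8 of 10 in the first of these comparisons and lower in 8 in the second, with sums of 10.41 to 10.48, 11.46 to 11.50 and 10.25 to 10.29. None of the markers of these 3 lists was at or below the brightest negative control. The part of these tissues in the differences of the glucose genes was not tested, and more cells of a type cannot be told apart here from more RNA per cell.

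Neuron markers were higher in 10 of 16 genes in 1dpi against 0dpi and lower in 9 in 1dpiT against 1dpi, and those of ependymoglia and oligodendrocytes were higher in 5 of 9 and lower in 5. Epidermis went the other way in the first comparison, with 2 of 12 higher and 6 lower. In the second comparison 5 of the 12 epidermis markers were higher and 3 lower. Leukocyte markers were split, at 5 higher and 5 lower of 14 in the first comparison and 4 higher and 5 lower in the second. Endothelial markers stood at 4 higher and 3 lower of 13 in the first comparison and at 3 higher and 4 lower in the second. The 4 higher of the first came to 2 without 0dpi replicate 2 or without any 1 of the 1dpi arrays.

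Between 1dpiT and 0dpi, where SLC2A1 and DDIT4 were lower, fewer markers were called. Calls were also fewer over all 8639 genes, at 2.16% higher and 3.67% lower. Each marker list had a larger share than that called in at least 1 direction, in lists so short that 1 gene weighs much. Of the 21 muscle markers 1 was higher and 6 were lower (median 0.02), and of the 16 neuron markers 4 were higher and 0 lower. Epidermis had 3 of 12 lower, leukocytes 1 higher and 3 lower of 14, endothelium 1 higher and 2 lower of 13, and ependymoglia and oligodendrocytes 2 of 9 higher. Erythrocyte and connective tissue lists had 1 gene lower each. With 1 array left out, the muscle markers called lower numbered 4 to 5 and the neuron markers called higher 1 to 4. The epidermis markers called lower then numbered 1 to 3 and the leukocyte markers called higher 0. The part of these markers in the differences of SLC2A1 and DDIT4 was not tested.

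Genes of glucose making, glycogen and the pentose phosphate pathway were called in both directions. Of 17 genes that make glucose, store it as glycogen or feed the pentose phosphate pathway, 5 were higher and 5 lower in 1dpi against 0dpi (median 0.10), and 5 higher and 7 lower in 1dpiT against 1dpi (median -0.07). PYGM, the muscle phosphorylase that breaks glycogen down, rose by 1.09 ± 0.06 in the first comparison and fell by 1.07 ± 0.06 in the second. PGM1, which moves glucose phosphate between glycogen and glycolysis, rose by 0.69 ± 0.05 and fell by 0.79 ± 0.05, and GYG1, the primer of glycogen, rose by 0.52 ± 0.05 and fell by 0.51 ± 0.05. PCK2, a mitochondrial enzyme that withdraws oxaloacetate for glucose synthesis, was opposite, at -1.22 ± 0.05 and 0.94 ± 0.05. Named after their values were seen, the pentose phosphate genes TKT (-0.50 and 0.40), RPIA (-0.30 and 0.45), TALDO1 (-0.30 and 0.29) and PGD (-0.26 and 0.20) were called like PCK2. PGLS, of the same pathway, was not called in the first comparison and was lower in the second, at -0.24. Among glycogen genes, the second probe set of PYGL was called at -0.42 and 0.35. In 1dpiT against 0dpi, 1 of the 17 was called lower and 0 higher.

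Of 10 genes that bring pyruvate into the mitochondrion, 2 were higher and 1 lower in 1dpi against 0dpi, and 0 higher and 3 lower in 1dpiT against 1dpi. PDHX, a structural part of pyruvate dehydrogenase, rose by 0.44 ± 0.05 and fell by 0.44 ± 0.05. PDP1, the phosphatase that switches that enzyme on, rose by 0.52 ± 0.08 and fell by 0.72 ± 0.08. PDPR, its regulatory subunit, was lower in 1dpi (log2 -0.32 ± 0.06), and PDK2, a kinase that switches the enzyme off, was lower in 1dpiT than in 1dpi (log2 -0.23 ± 0.07). DLAT and PC, named after their values were seen, were not called on their brightest probe sets. Their second probe sets were called lower in 1dpi against 0dpi, at -0.63 and -0.54. In 1dpiT against 1dpi these were called higher, at 0.60 and 0.47. Between 1dpiT and 0dpi, 2 of the 10 were lower, and 1 without any 1 of replicates 2 and 3 of the 3 groups.

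HIF1A, the oxygen-regulated subunit of the hypoxia factor, did not rise with SLC2A1 and the enzymes. It stood at 5.59, 5.46 and 5.70 in 0dpi, at 5.28, 5.24 and 5.02 in 1dpi, and at 5.33, 5.38 and 5.27 in 1dpiT. The uninjured arrays were highest, and 1dpi and 1dpiT overlapped. HIF1A fell by 0.40 ± 0.08 in 1dpi against 0dpi (1.32-fold, adjusted p = 0.00201). It differed by 0.14 between 1dpiT and 1dpi, with an interval of -0.04 to 0.33 (adjusted p = 0.170), and by -0.26 between 1dpiT and 0dpi, with an interval of -0.44 to -0.07 (adjusted p = 0.115).

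Its partners and regulators moved in both directions. Of 11 genes of oxygen sensing outside the members, 1 was higher and 6 lower in 1dpi against 0dpi (median -0.19). The 1 that rose was EPAS1 (0.59 ± 0.07), a second oxygen-regulated factor known from endothelium in mammals. VHL, the part of the ubiquitin ligase that binds HIF1A, fell by 0.74 ± 0.10, CUL2, the scaffold of that ligase, by 0.40 ± 0.06, and SIAH2, a ligase for the prolyl hydroxylases, by 0.40 ± 0.04. In 1dpiT against 1dpi, 4 were higher and 3 lower (median 0.07). CUL2 was 0.44 ± 0.06 and SIAH2 0.38 ± 0.04 higher, EPAS1 fell by 0.53 ± 0.07 and HIF3A, a related factor, by 0.48 ± 0.08. Against uninjured cord, 2 of the 11 were lower in 1dpiT, HIF3A at -0.70 and CITED2, a factor that competes with HIF1A, at -0.45. The second probe set of CITED2 stood at -0.34 there and was not called. In 1dpiT against 1dpi the probe sets of CITED2 were called in opposite directions, at -0.27 and 0.29.

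DDIT4, also called REDD1, is induced by low oxygen and by glucocorticoids in mammals and holds back mTOR, the kinase that drives protein synthesis. It had the largest differences of the 13 probe sets in each comparison. DDIT4 stood at 7.51, 7.56 and 7.62 in 0dpi, at 10.46, 10.37 and 10.21 in 1dpi, and at 6.08, 6.38 and 6.21 in 1dpiT. The groups did not overlap, with 1dpi highest and 1dpiT lowest. It rose 6.90-fold in 1dpi against 0dpi (log2 2.79 ± 0.09, adjusted p = 3.32e-09), the 49th largest rise of the 20035 probe sets. It was 17.4-fold lower in 1dpiT than in 1dpi (log2 -4.12 ± 0.09, adjusted p = 1.72e-10), the 22nd largest fall, and 2.52-fold lower than in 0dpi (log2 -1.34 ± 0.09, adjusted p = 1.47e-05), the 14th largest fall of that comparison.

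The mTOR pathway around DDIT4 was split. Of 20 other genes, 7 were higher and 7 lower in 1dpi against 0dpi (median 0.04), and 7 higher and 8 lower in 1dpiT against 1dpi (median -0.03). SESN1, a stress-induced sestrin that also restrains mTOR, rose by 1.18 ± 0.06 in the first comparison and fell by 1.97 ± 0.06 in the second. RPS6KB1, the S6 kinase downstream of mTOR, fell by 1.37 ± 0.09 in 1dpi and was 1.39 ± 0.09 higher in 1dpiT, and its other 2 probe sets were called the same way. PDPK1, a kinase that activates it, fell by 1.14 ± 0.08 in 1dpi and was 1.31 ± 0.08 higher in 1dpiT than in 1dpi. The second probe set of PDPK1, at -0.04 and 0.06, was not called. EIF4E, the factor that binds the mRNA cap, had probe sets called in opposite directions, at -0.47 and 0.44 in 1dpi and at 0.55 and -0.88 in 1dpiT against 1dpi. SESN1 was the single gene of the 20 called in 1dpiT against 0dpi, at -0.78, and without 0dpi replicate 1 or 2 a second gene was lower there.

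Genes of the stress and glucocorticoid list, which can share regulators with DDIT4 in mammals, were likewise mixed. Of 11, 5 were higher and 3 lower in 1dpi against 0dpi (median 0.02), and 2 higher and 5 lower in 1dpiT against 1dpi (median -0.15). GADD45B, a stress gene of the cell cycle, rose by 1.40 ± 0.10 and fell by 1.95 ± 0.10. TSC22D3, a glucocorticoid-induced leucine zipper gene, rose by 1.07 ± 0.05 and fell by 1.62 ± 0.05, and SGK1, a kinase with similar induction, fell by 0.72 ± 0.05 in 1dpiT against 1dpi. DDIT3, a factor of endoplasmic reticulum stress, went the opposite way, at -1.03 ± 0.05 and 0.70 ± 0.05, and GADD45A fell by 0.85 ± 0.06 in 1dpi. Against uninjured cord, 4 of the 11 were lower in 1dpiT and 0 higher. These were TSC22D3 (-0.56), GADD45B (-0.56), SGK1 (-0.46) and DDIT3 (-0.34).

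BNIP3 encodes a protein of the outer mitochondrial membrane that marks mitochondria for removal. Its brighter probe set, axo09732-r_at, stood at 10.03, 10.05 and 10.04 in 0dpi, at 9.82, 10.04 and 9.92 in 1dpi, and at 10.30, 10.20 and 10.12 in 1dpiT. The 1dpiT arrays lay above all others, and 0dpi and 1dpi overlapped. BNIP3 was 0.28 ± 0.07 higher in 1dpiT than in 1dpi (1.21-fold, adjusted p = 0.00471). It differed by -0.11 between 1dpi and 0dpi (95% interval -0.26 to 0.04, adjusted p = 0.188) and by 0.17 between 1dpiT and 0dpi (0.02 to 0.31, adjusted p = 0.207).

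The second probe set of BNIP3, axo09731-f_at, was called in none of the comparisons and overlapped in all of them. It stood at 4.44, 4.60 and 4.09 in 0dpi, at 4.89, 4.48 and 4.68 in 1dpi, and at 4.80, 4.40 and 4.49 in 1dpiT. Its intervals were wide, at -0.03 to 0.64 for 1dpi against 0dpi, -0.45 to 0.22 for 1dpiT against 1dpi and -0.15 to 0.52 for 1dpiT against 0dpi. With the mean of both probe sets standing for the gene, the call in 1dpiT against 1dpi was lost (0.08, adjusted p = 0.431).

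Of 11 other mitophagy genes, 6 were higher and 2 lower in 1dpi against 0dpi (median 0.25), and 2 higher and 7 lower in 1dpiT against 1dpi (median -0.23). The smaller count of each comparison fell from 2 to 1 without some single arrays, 3 of the 9 in the first and 6 in the second. SQSTM1, a receptor for cargo, rose by 0.64 ± 0.07 and fell by 1.11 ± 0.07. MAP1LC3B and GABARAPL2, which coat the forming vesicle, rose by 0.64 ± 0.05 and 0.64 ± 0.07 and fell by 0.63 ± 0.05 and 0.61 ± 0.07. PHB2, a receptor of the inner membrane, went the other way, at -0.34 ± 0.05 and 0.38 ± 0.05. BNIP3L, the gene closest to BNIP3 in kind, named after its values were seen, stood at 0.05 and -0.05 and was not called. Its signal was low, with group means of 3.90 to 3.95 against 3.47 for the brightest negative control, which limits what its small differences show. In 1dpiT against 0dpi, SQSTM1 (-0.46) was lower and 0 were higher.

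P4HA2 encodes a catalytic subunit of the prolyl 4-hydroxylase that stabilises collagen, and its probe sets were called in opposite directions. Probe set axo06472-r_at stood at 5.997, 6.06 and 6.12 in 0dpi, at 5.67, 5.84 and 5.81 in 1dpi, and at 6.13, 6.31 and 6.27 in 1dpiT. The 1dpi arrays were lowest and the 3 groups did not overlap. Probe set axo06467-f_at stood at 5.11, 5.32 and 5.47 in 0dpi, at 5.51, 5.75 and 5.72 in 1dpi, and at 5.03, 5.20 and 5.24 in 1dpiT. Here the 1dpi arrays were highest, and 0dpi and 1dpiT overlapped.

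For 1dpi against 0dpi, the differences of P4HA2 were -0.29 ± 0.07 (axo06472-r_at, adjusted p = 0.00449) and 0.36 ± 0.10 (axo06467-f_at, adjusted p = 0.0116). For 1dpiT against 1dpi they were 0.46 ± 0.07 (adjusted p = 0.000173) and -0.50 ± 0.10 (adjusted p = 0.00153). For 1dpiT against 0dpi they were 0.18 (95% interval 0.03 to 0.33) and -0.14 (-0.37 to 0.08), and neither was called. P4HA2 has therefore no single direction on these arrays, and the mean of both probe sets gave 0.04 for 1dpi against 0dpi and -0.02 for 1dpiT against 1dpi. What the letters f and r in the probe set names stand for is not given in the sources used here.

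Of 8 other genes of collagen modification, 2 were higher and 1 lower in 1dpi against 0dpi, 2 higher and 3 lower in 1dpiT against 1dpi, and 0 were called in 1dpiT against 0dpi. The 2 higher in 1dpiT against 1dpi came to 1 without replicate 2 or 3 of either group. P4HB, the partner subunit of P4HA2, fell by 0.27 ± 0.05 in 1dpi against 0dpi and was 0.39 ± 0.05 higher in 1dpiT than in 1dpi. PLOD2, a lysyl hydroxylase, rose by 0.38 ± 0.09 and fell by 0.41 ± 0.09, and SERPINH1, a chaperone of collagen, rose by 0.28 ± 0.05 and fell by 0.33 ± 0.05. Of the other 2 probe sets of SERPINH1, 1 was called the same way, and the other stood at -0.10 and 0.18 and was not called.

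Hypoxia targets outside glucose use moved in both directions. Of 17 such genes, 3 of which are also in the collagen list and 1 in the mitophagy list, 5 were higher and 3 lower in 1dpi against 0dpi (median 0.06), and 1 higher and 6 lower in 1dpiT against 1dpi (median -0.08). The 3 lower genes came to 1 without 0dpi replicate 2 or 3 or without 1dpi replicate 1 or 2, and ran from 1 to 4 over the 9 arrays left out. The 1 higher gene was lost without 1dpi replicate 1 and without 1dpiT replicate 3. LOXL2, which crosslinks collagen, rose by 1.47 ± 0.06 and fell by 1.59 ± 0.06. HMOX1, which breaks down heme, rose by 1.38 ± 0.05 and fell by 1.92 ± 0.05. MXI1, an antagonist of MYC, was lower in 1dpi (log2 -0.52 ± 0.06), and KDM3A, a histone demethylase, and VLDLR, a lipoprotein receptor, fell by 0.39 ± 0.08 and 0.49 ± 0.08 in 1dpiT against 1dpi. In 1dpiT against 0dpi, 3 of the 17 were lower, namely HMOX1 (-0.55), MXI1 (-0.44) and VLDLR (-0.38), and 0 were higher. The second probe set of VLDLR was called in none of the comparisons. NDRG1 was counted as higher in 1dpi against 0dpi, at 0.31, and as lower in 1dpiT against 1dpi, at -0.34. Its second probe set was called the opposite way in both, at -0.53 and 0.48.

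The genes nearest to each member over the 9 arrays were found by the root mean square difference of centred log2 values. Nearest to SLC2A1 were FOS (0.12), an immediate early transcription factor, PENK (0.19), a precursor of opioid peptides, and G0S2 (0.21), an inhibitor of fat breakdown in mammals. Nearest to DDIT4 were FOS (0.20), TPM1 (0.25), a tropomyosin, and SLC2A1 itself (0.27). Both members thus had FOS as their nearest gene, and FOS differed by 2.65, -3.68 and -1.02 in the 3 comparisons. This TPM1 value is that of probe set axo19411-f_at, which is not the one that stood for TPM1 among the muscle markers.

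Nearest to ALDOA were ACADM, an enzyme of fatty acid oxidation, UBE2E3 and GYG1, at 0.029 to 0.036. Nearest to TPI1 were RNASEH2C, MTX2 and FKBP11, and nearest to ENO1 were AP2A2, STXBP6 and MCL1. For PGAM1 they were YJEFN3, ATF4 and PDLIM2, and for HIF1A BCL2L10, RABGEF1 and RHBDD1. For BNIP3 (axo09732-r_at) they were OSBPL9, VNN1 and PPP2R5A, and for P4HA2 (axo06472-r_at) TRMT5, TMX3 and PHF8. The 9 arrays are 3 groups of 3, and no test was made on these likenesses.

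Some of the small differences changed direction with the scaling of the arrays. With each array centred on its poly-A spike-ins, SLC2A1 (axo12159-f_at) stood at 1.86, -2.91 and -1.05 in the 3 comparisons and DDIT4 at 2.24, -3.47 and -1.23, and all calls of DDIT4 and of both SLC2A1 probe sets held. ALDOA came to -0.05 ± 0.06 for 1dpi against 0dpi and 0.10 ± 0.06 for 1dpiT against 1dpi, ENO1 to -0.07 ± 0.06 and 0.01 ± 0.06, and the brighter TPI1 probe set to 0.05 ± 0.06 and 0.02 ± 0.06, with 0 of these called. The other TPI1 probe set, axo06950-f_s_at, was called higher in 1dpiT against 1dpi, at 0.16 (adjusted p = 0.0234), where it was called lower as deposited (-0.49). Of the 13 probe sets, 5 changed sign in 1dpi against 0dpi, 6 in 1dpiT against 1dpi and 2 in 1dpiT against 0dpi. HIF1A, PGAM1 and BNIP3 (axo09732-r_at) were then lower in 1dpi than in 0dpi, at -0.95, -0.76 and -0.66, and higher in 1dpiT than in 1dpi, at 0.79, 0.70 and 0.93. The other glycolytic genes turned from 9 higher and 1 lower to 1 higher and 14 lower in 1dpi against 0dpi, and from 1 higher and 10 lower to 17 higher and 1 lower in 1dpiT against 1dpi. The medians of the other 9 pathway lists came to -0.74 to -0.30 in 1dpi against 0dpi and 0.42 to 0.72 in 1dpiT against 1dpi. Mitophagy genes turned from 6 higher and 2 lower to 0 and 7 (median -0.30), and in 1dpiT against 1dpi from 2 higher and 7 lower to 7 and 1 (median 0.42). Over all probe sets 6.95% of those called were higher in 1dpi than in 0dpi on that scale.

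Marker counts changed as well under the spike-in centring. Skeletal muscle markers were then higher in 14 and lower in 5 of 21 in 1dpi against 0dpi, and higher in 6 and lower in 10 in 1dpiT against 1dpi. Connective tissue stood at 13 higher and 6 lower of 20 in the first comparison and at 6 higher and 12 lower in the second. In the same order, erythrocytes stood at 4 and 4 and at 5 and 5 of 10, and neurons at 8 and 7 and at 8 and 3 of 16. Ependymoglia and oligodendrocytes turned to 1 higher and 4 lower of 9 in the first comparison and to 7 higher and 0 lower in the second. Which of the scales is nearer to transcripts per cell was not tested.

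**Figure D4:**
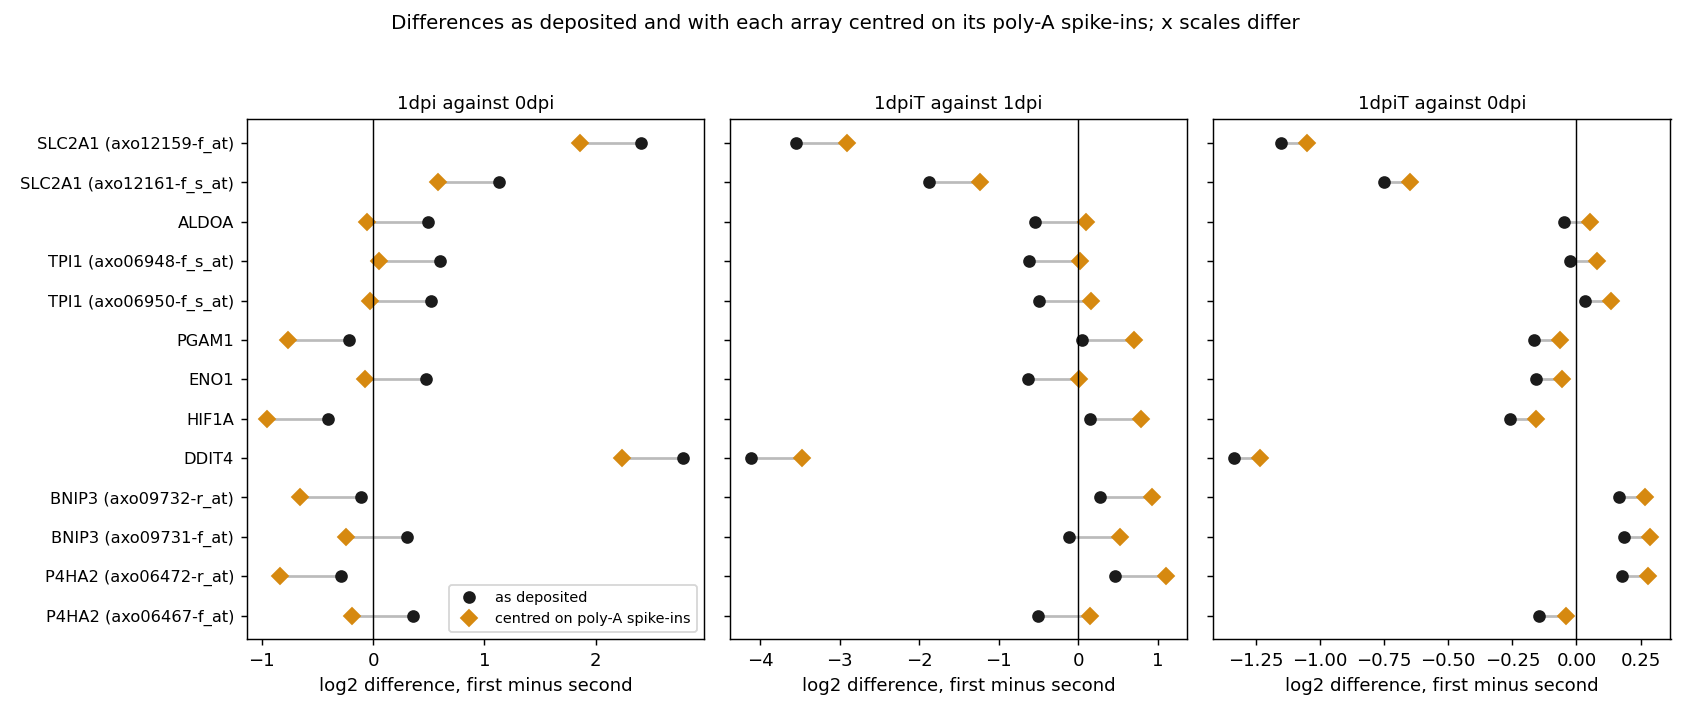
Log2 difference (x axis, a scale of its own in each panel) of the 13 probe sets (y axis) in the 3 comparisons, as deposited (circles) and with each array centred on its poly-A spike-ins (diamonds). SLC2A1 and DDIT4 keep their side of 0 in all panels, while ALDOA, TPI1 and ENO1 move to between -0.07 and 0.16 in the first and second panels.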

How the data were processed

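Total RNA was pooled from 10 animals per array and hybridised to a custom axolotl Affymetrix array, 3 arrays per group. The authors processed the arrays with RMA in Affymetrix Expression Console (versions not given in the sources used here), which corrects background, equalises the distributions of the arrays and summarises probes, and deposited log2 values. Values ran from 2.65 to 14.6, with array medians of 5.84 to 5.89. Of 20080 probe sets, 45 controls were left out, and the other 20035 were tested without a filter. Of these, 1418 had a mean at or below the brightest negative control (3.47). All 13 member probe sets lay above it. Symbols came from the platform annotation (10951 probe sets with 1 symbol, 9084 without), and all 9 members matched 1 axolotl RefSeq gene each. An array gives no read depth, so the number of arrays limits the precision.

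Groups were taken from the sample labels and compared in R 4.3.3 with limma 3.58.1 (1 coefficient per group, all 9 arrays, eBayes without trend, 2-sided tests, Benjamini-Hochberg adjustment over 20035 probe sets, calls at an adjusted p under 0.05). SE and 95% intervals are those of the moderated model. The p-values measure the spread between pools of animals. For a gene with several probe sets, the one with the highest mean over the 9 arrays stood for it in the lists. Besides the members, the text names up to 4 genes with the smallest p per pathway list in each of the first 2 comparisons and the 3 nearest genes of each member. Others were named after their values were seen. The members and lists were chosen with earlier results of these data known, so counts over them are descriptions without a test. The test was tried on simulated data. Alternatives were spike-in or median centring, repeated quantile normalization, removal of dim probe sets, moderation with trend and robust, arrays of the compared groups alone, the mean of a gene's probe sets, a 2-fold rule, the replicate number as a block and leaving out each array.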

Additional observations from a re-analysis of the deposited data

How the results depend on the processing

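Calls and directions of the 13 member probe sets were the same in all 3 comparisons after median centring, repeated quantile normalization, a fit of the 6 arrays compared, removal of probe sets at the negative controls and the replicate number as a block. Same-numbered arrays did not deviate together (r -0.22 to 0.23, over 0.1 in 1 of 9 pairs, and 2 of 9 arrays were closest to their own number). No pairing by number was seen, but 3 arrays per group cannot exclude it. The replicate block lowered the probe sets called higher in 1dpiT against 0dpi from 452 to 291. Leaving out 1 array gave 218 to 458 higher and 422 to 654 lower there, and 2 to 3 members lower, the one lost being SLC2A1 (axo12161-f_s_at, adjusted p 0.00538 to 0.0674). Member counts of the other comparisons were the same without any 1 array. TPI1 (axo06948-f_s_at) ran from -0.0400 to 0.00104 in 1dpiT against 0dpi, above 0 without 1dpiT replicate 1.

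Centring on the poly-A spike-ins moved many counts. Members called came to 3 higher in 1dpi against 0dpi, which was 42.9% of the members called. Those lower there were PGAM1, HIF1A, BNIP3 (axo09732-r_at) and P4HA2 (axo06472-r_at). In 1dpiT against 1dpi 6 were higher and 3 lower. In 1dpiT against 0dpi 1 was higher, and DDIT4 and both SLC2A1 probe sets were lower. Over all probe sets the centring gave 1266 higher and 16954 lower, 17530 and 1122, and 1609 and 343. The higher share of all calls was thus 6.95% in place of 46.7%, 94.0% in place of 53.7% and 82.4% in place of 40.3%. The sign turned for ALDOA (-0.0518, 0.10 and 0.0526 in the 3 comparisons) and ENO1 (-0.0699 and 0.0150 in the first 2). It turned for TPI1 axo06948-f_s_at in 1dpiT against 1dpi (0.0234) and against 0dpi (0.0783), and for axo06950-f_s_at in the first 2 (-0.0258 and 0.16). It also turned for BNIP3 axo09731-f_at (-0.24 and 0.53) and P4HA2 axo06467-f_at (-0.19 and 0.15) in the first 2. The centring itself sets these shifts of -0.55, 0.65 and 0.10.

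Without the dimmest 50% of probe sets, 10017 were tested in place of 20035. Of these, 3203 were higher in 1dpi against 0dpi and 3257 lower in 1dpiT against 1dpi, in place of 4945 and 5015, so the share called was larger. Of the 10 members left, 5 were lower in 1dpiT against 0dpi. Moderation with trend and robust gave 777 higher and 5 members lower in 1dpiT against 0dpi. An unadjusted p under 0.05 with at least 2-fold left 3 members higher and 0 lower, then 0 higher and 3 lower, and over all probe sets 723 and 703, 787 and 776, and 7 and 25. The mean of a gene's probe sets turned the sign of TPI1 in 1dpiT against 0dpi (0.00485), BNIP3 (0.10) and P4HA2 (0.0365) in 1dpi against 0dpi, and P4HA2 in 1dpiT against 1dpi (-0.0196). The cause was not tested. Of 108 counts and 54 medians over the gene lists, spike-in centring left 27 and 0 in place, and each other alternative 82 to 108 and 41 to 54. Signal limits the dim probe sets of BNIP3, HIF1A and P4HA2, and RMA leaves the absolute scale unknown.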
